A study of Mus musculus with 2 samples.

Results

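The Bio-Tdg peaks that lie in the 4 Hox gene clusters of the mouse were described here. They were chosen by position, as every peak of the deposited list that overlaps a fixed window over a cluster. The windows and genes themselves were chosen with earlier results of these data known. The windows were chromosome 6, 52100000 to 52215000, for Hoxa, chromosome 11, 96050000 to 96232000, for Hoxb, chromosome 15, 102740000 to 102870000, for Hoxc and chromosome 2, 74490000 to 74610000, for Hoxd, all in mm9. They held 129 of the 72970 peaks of the list, 33 each in Hoxa, Hoxb and Hoxc and 30 in Hoxd. The 38 Hox genes named for these windows were Hoxa2 to Hoxa13 (10 genes), Hoxb1 to Hoxb13 (10), Hoxc4 to Hoxc13 (9) and Hoxd1 to Hoxd13 (9).

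The study measured binding of Tdg by ChIP-seq in mouse embryonic stem cells of the E14 line. One library came from cells labelled Bio-Tdg, in which Tdg carries a biotin tag (n = 1), and the other from mock cells that carry the biotin ligase BirA (n = 1), with no further treatment, clone or genotype given in the labels. The file analysed is the peak list of the Bio-Tdg library, and no file of the mock was analysed here, so no background measured in the mock stands beside any value. With 1 library there is no replicate error and no test between samples, and the list holds no expression values from which the cell type could be checked.

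Hox genes encode homeodomain transcription factors that give cells their place along the body axis. Their order on the chromosome follows the order in which they act along that axis, with Hoxa2, Hoxb1 and Hoxb2 among the genes of the anterior end, which act in the hindbrain, and Hoxa13, Hoxb13, Hoxc13 and Hoxd13 at the posterior end, which act in the distal limb, genital tract, tail or hair. Genes in between, such as Hoxc6 and Hoxc8, act in the trunk. In embryonic stem cells the clusters are known as CpG-rich domains held silent by Polycomb complexes, with activating and repressive histone marks at the same promoters. Tdg, thymine DNA glycosylase, removes the oxidised forms of methylcytosine, formylcytosine and carboxylcytosine, which arise mostly in the dinucleotide CG.

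How far the members differ in that dinucleotide is shown by the RefSeq promoters (GRCm38.p6), taken from 250 bases before to 50 bases after each gene's start. Of the 38 genes, 22 had an entry, 9 in Hoxa, 9 in Hoxd, 3 in Hoxb and 1 in Hoxc, so the values rest mainly on Hoxa and Hoxd. For a gene with several starts the one with most CG dinucleotides (letters CG, which read the same on both strands) was used. These 22 promoters held 4 to 45 CG with a median of 17.5, against a median of 8 over the 27025 genes of the table. At least 20 CG were present in 11 of the 22, among them Hoxa5, Hoxa6, Hoxd1, Hoxd10 and Hoxd11, against 28.8% of all genes in the table. The 27025 genes outnumber the 20661 protein-coding genes that RefSeq lists on the autosomes. The table may thus hold other kinds of gene, and both comparisons may be with unlike genes. At least 1 CG was present in 94.6% of all promoters. The 250 bases before the start are given 5′ to 3′ for the 2 members with the most CG, Hoxa13 and Hoxd13, and the 2 with the fewest, Hoxa9 and Hoxd4, with each CG in capitals. They lie at chr6:52260881-52261130 (minus strand), chr2:74667975-74668224 (plus), chr6:52227371-52227620 (minus) and chr2:74721728-74721977 (plus) of GRCm38.p6. These positions cannot be set beside the peaks, which are in mm9.
Hoxa13: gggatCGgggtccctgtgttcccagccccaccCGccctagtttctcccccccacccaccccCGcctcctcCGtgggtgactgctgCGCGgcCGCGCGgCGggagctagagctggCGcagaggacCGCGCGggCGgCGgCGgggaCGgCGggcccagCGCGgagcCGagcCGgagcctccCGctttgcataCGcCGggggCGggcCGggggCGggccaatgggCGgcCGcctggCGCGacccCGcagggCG
Hoxd13: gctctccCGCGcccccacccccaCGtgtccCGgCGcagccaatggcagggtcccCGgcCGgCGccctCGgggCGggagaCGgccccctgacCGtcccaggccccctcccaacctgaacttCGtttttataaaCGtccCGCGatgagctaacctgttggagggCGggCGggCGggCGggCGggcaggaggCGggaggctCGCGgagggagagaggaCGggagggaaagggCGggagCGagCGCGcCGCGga
Hoxa9: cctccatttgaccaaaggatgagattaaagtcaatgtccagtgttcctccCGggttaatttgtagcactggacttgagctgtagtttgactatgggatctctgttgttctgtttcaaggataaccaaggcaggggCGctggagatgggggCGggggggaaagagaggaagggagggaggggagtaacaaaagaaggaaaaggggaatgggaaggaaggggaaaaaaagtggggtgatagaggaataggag
Hoxd4: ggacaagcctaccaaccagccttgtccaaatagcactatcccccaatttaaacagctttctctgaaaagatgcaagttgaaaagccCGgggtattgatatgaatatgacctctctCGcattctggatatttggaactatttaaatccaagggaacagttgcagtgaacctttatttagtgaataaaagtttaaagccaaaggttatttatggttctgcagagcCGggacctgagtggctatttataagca
The stretch before Hoxa13 held 35 CG and that before Hoxd13 held 31, whereas those before Hoxa9 and Hoxd4 held 3 each. No mm9 sequence or gene position was used here, so peaks are given by place in the window and not by gene.

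The first comparison asked whether Tdg peaks were denser in the clusters than in the 500 kb on each side. Hoxd stood out most from its surroundings. Its window held 30 peaks in 120 kb, or 25.0 per 100 kb (exact 95% Poisson interval 16.9 to 35.7), and the 1 Mb around it held 13, or 1.30 per 100 kb (0.692 to 2.22). The density in Hoxd was thus 19.2 times that of its flanks (exact 95% interval 9.73 to 40.2). Hoxa had 28.7 peaks per 100 kb (19.8 to 40.3) against 4.60 in its flanks (3.37 to 6.14), a ratio of 6.24 (3.86 to 9.97). Hoxc had 25.4 per 100 kb (17.5 to 35.6) against 9.50 (7.69 to 11.6), a ratio of 2.67 (1.74 to 4.01). In these 3 clusters the whole interval of the ratio lay above 1.

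Hoxb, the cluster with Hoxb13 at its low-coordinate end, did not differ from its surroundings beyond counting error. It had 18.1 peaks per 100 kb (12.5 to 25.5) and its flanks had 14.0 (11.8 to 16.5), a ratio of 1.30 (0.858 to 1.90). Counting only peaks that scored 1000 or more, where the score is the authors' own value per peak, the ratio for Hoxb was 2.46 (1.30 to 4.46), and its interval lay above 1. Summed over the 4 clusters, the density was 3.21 times that of the flanks (2.59 to 3.96), and 5.12 times (3.93 to 6.65) without Hoxb. The intervals treat peaks as independent counts and are too narrow where peaks cluster. They cover counting error within this list and no variation between cultures.

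**Figure D1:**
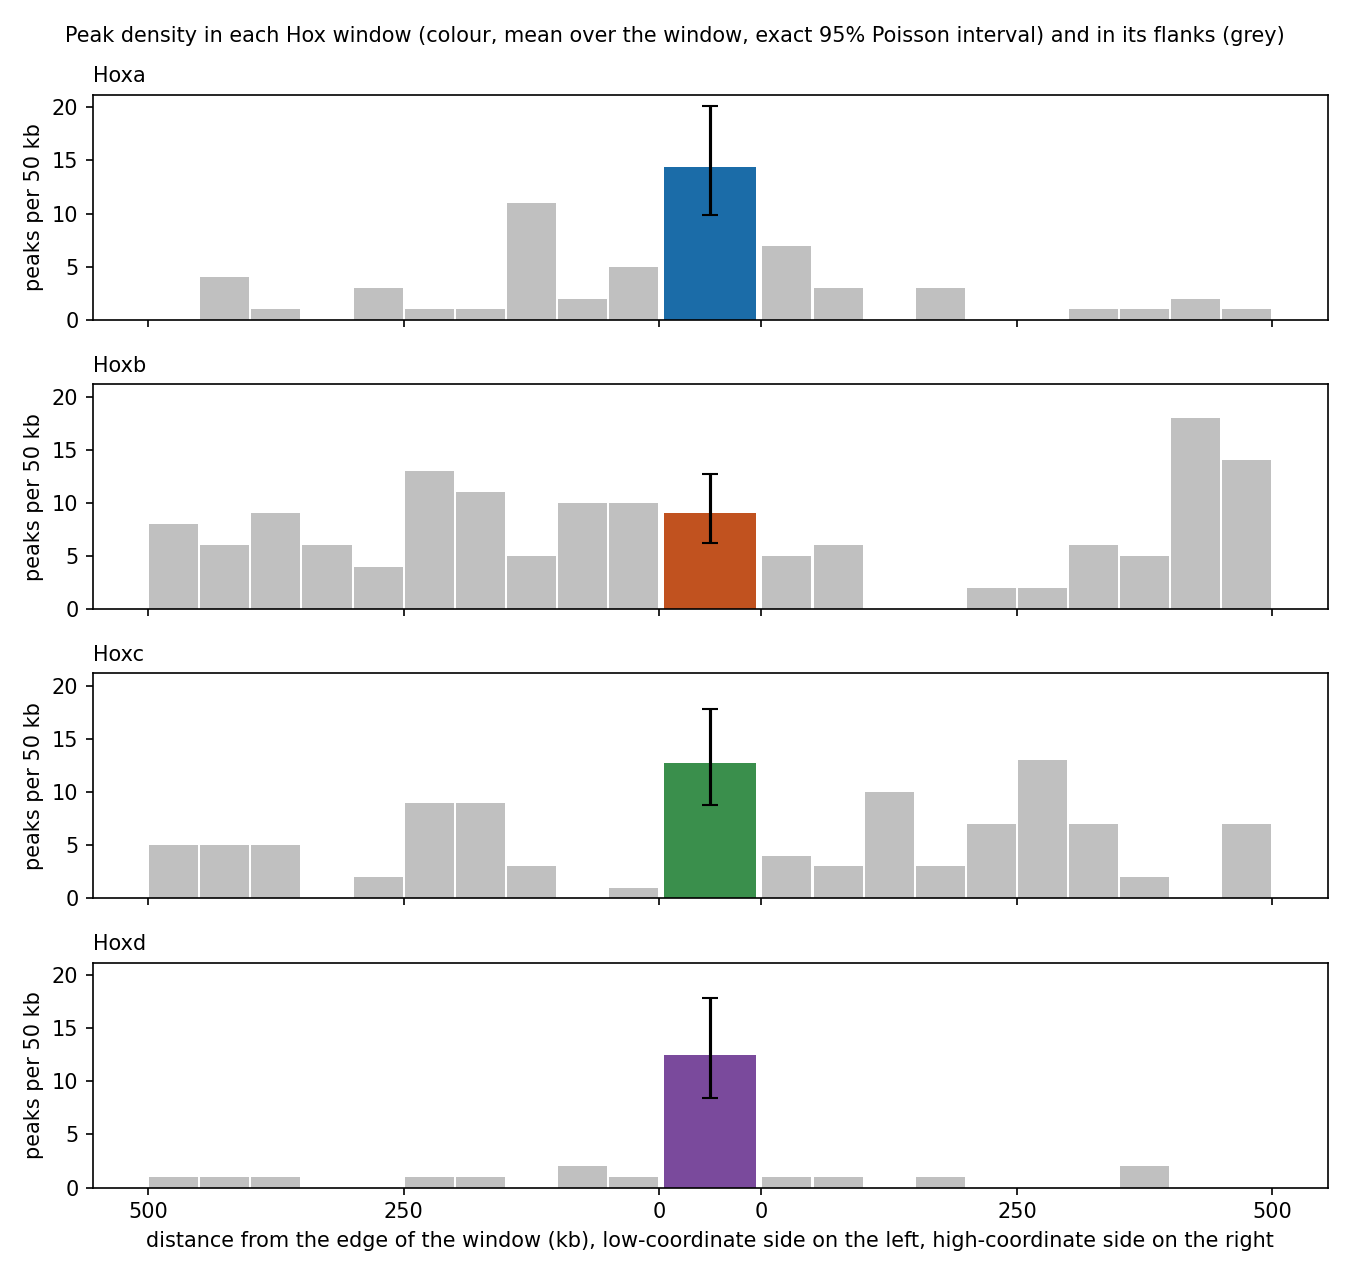
Peaks per 50 kb in each Hox window (coloured bar, mean over the window, drawn at the same width for all 4, with its exact 95% Poisson interval) and in steps of 50 kb through the 500 kb on each side (grey), for Hoxa, Hoxb, Hoxc and Hoxd from top to bottom. No grey bar of Hoxd exceeds 2 peaks, whereas the grey bars around Hoxb reach 18.

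The surroundings of the clusters differed more than the clusters did. The flanks ran from 13 peaks around Hoxd through 46 around Hoxa and 95 around Hoxc to 140 around Hoxb. Relative to the rest of its chromosome, the density was 0.385 in the flanks of Hoxd (0.205 to 0.659), 1.92 in those of Hoxa (1.403 to 2.57), 2.55 in those of Hoxb (2.14 to 3.02) and 3.02 in those of Hoxc (2.43 to 3.70). Only around Hoxd, among the 4, was the neighbourhood sparser than its chromosome. Against the rest of the chromosome, the clusters themselves had 11.9 (Hoxa, 8.18 to 16.7), 7.90 (Hoxc, 5.43 to 11.1), 7.43 (Hoxd, 5.01 to 10.6) and 3.26 times the density (Hoxb, 2.24 to 4.58). On this scale all 4 lay above 1, Hoxb included.

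The clusters were not told apart from one another by density. Of the 6 pairs, the ratio farthest from 1 was that of Hoxa to Hoxb, at 1.58, and its exact 95% interval of 0.947 to 2.65 still held 1. Those of Hoxb to Hoxc (0.714, 0.427 to 1.19) and Hoxb to Hoxd (0.725, 0.429 to 1.23) were below 1 with intervals that also held it. Hoxc and Hoxd were closest, at a ratio of 1.02 (0.600 to 1.72). The intervals are not adjusted for the number of pairs, and they leave room for differences of more than 1.5 times in each pair.

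Both sides of each window were sparser than the window in number, but not to the same degree. Hoxa had 5.12 times the density of its low-coordinate flank (3.003 to 8.80) and 7.97 times that of its high-coordinate flank (4.36 to 15.0). Hoxc had 3.25 times (1.98 to 5.31) and 2.27 times (1.43 to 3.55), and Hoxd 15.6 (6.998 to 39.4) and 25.0 (9.60 to 82.5). Hoxb had 1.11 times the density of its low-coordinate flank (0.715 to 1.67) and 1.56 times that of the other (0.987 to 2.44). Outside the edges the peaks stopped at different distances. The nearest peak beyond Hoxd lay 39.2 kb away on the low-coordinate side, where Hoxd13 is the outermost member, and 17.9 kb away on the side of Hoxd1. Beyond Hoxc it lay 23.2 kb from the edge on the side of Hoxc13 and 18.8 kb on that of Hoxc4. Around Hoxa these distances were 10.9 and 5.26 kb, and around Hoxb 10.2 and 3.52 kb. The first 50 kb beyond the window held 1 peak on either side of Hoxd and 1 and 4 beside Hoxc, but 5 and 7 beside Hoxa and 10 and 5 beside Hoxb.

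In bases covered by peaks the contrast was larger than in numbers for 3 of the clusters. Peaks covered 40.3% of Hoxa and 4.59% of its flanks, a ratio of 8.78. They covered 30.9% of Hoxd against 1.16%, a ratio of 26.7, and 26.3% of Hoxb against 15.4%, a ratio of 1.71. In Hoxc, with 32.4% against 12.2%, the ratio of 2.66 was nearly that of the peak numbers. Over the autosomes as a whole, each taken between its outermost peaks, peaks covered 3.24%.

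The clusters were also set against every stretch of the same length, by cutting the autosomes into consecutive windows. For Hoxa, 22 of 20928 windows of 115 kb (0.105%) held at least 33 peaks, and the median window held 1. At least as many peaks as in the cluster were found in 0.248% of 18512 windows for Hoxc (46 windows), 0.339% of 20057 for Hoxd (68) and 1.72% of 13222 for Hoxb (228). In bases covered, 0.0526% of the windows reached Hoxa (11 windows), 0.248% Hoxc (46), 0.414% Hoxd (83) and 0.597% Hoxb (79). The fullest windows went further, with 37 peaks at the length of Hoxa and 56 at that of Hoxb. These shares describe the list and are not p-values.

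Per gene rather than per base, the peaks of the clusters were close in number to those of the autosomes, but the 2 counts are unlike. The 129 peaks correspond to 3.39 for each of the 38 named Hox genes, against 3.496 for each of the 20661 protein-coding genes that RefSeq lists on the autosomes. By cluster, the values were 3.30 for Hoxa and Hoxb, 3.33 for Hoxd and 3.67 for Hoxc. Chromosomes 6, 11, 2 and 15, which carry Hoxa, Hoxb, Hoxd and Hoxc, had 3.16, 4.12, 3.39 and 4.18 peaks per protein-coding gene. Windows may hold genes beyond the 38, which would lower the values of the clusters, and it was not checked in mm9 that all 38 lie inside them, which could raise the values if some do not. The autosomal and chromosome values divide all peaks, wherever they lie, whereas the cluster values leave out the 294 flank peaks. This sets the cluster values lower by comparison, so they cannot tell whether the clusters stand out per gene. The gene numbers in the flanks were not used.

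The next description concerned the width of the peaks. Over all called peaks, Hox peaks tended to be broader than the peaks of the list, with more above its upper quartile of width and fewer below its lower one. The median was 1279 bp in Hoxa (95% interval from order statistics 1053 to 1516), 1128 bp in Hoxb (883 to 1580), 1195 bp in Hoxc (743 to 1335) and 1089 bp in Hoxd (858 to 1660), against 850 bp over the whole list. The intervals of Hoxa, Hoxb and Hoxd lay above 850 bp, that of Hoxd only just, and that of Hoxc held it. None of these 3 calls held among peaks scoring 500 or more, where the list's median was 1243 bp and the intervals were 1085 to 1571 bp in Hoxa, 1128 to 1872 bp in Hoxb and 1102 to 1829 bp in Hoxd. Among those scoring 1000 or more, Hoxa had a median of 1663 bp, below the 1714 bp of the list. With the Hoxd window narrowed by 10 kb on each side, the median of Hoxd was 1018 bp and its interval of 772 to 1353 held the list's median as well. With peaks of Hoxc less than 1 kb apart merged, its median run of 1342 bp (1097 to 2674) lay above the 958 bp of the merged list. In the flanks the medians were 878.5 bp (Hoxa), 865 bp (Hoxb), 971 bp (Hoxc) and 742 bp (Hoxd).

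Of the 129 peaks, 52 (40.3%) were wider than 1307 bp, the upper quartile of the list, where 25.0% of all peaks lie by construction. They were 15 of 33 in Hoxa, 14 of 33 in Hoxb, 12 of 33 in Hoxc and 11 of 30 in Hoxd. In the flanks 85 of 294 peaks (28.9%) were that wide. These were 12 of 46 around Hoxa, 34 of 140 around Hoxb, 37 of 95 around Hoxc and 2 of 13 around Hoxd. The share in Hoxc (36.4%) was thus no higher than in its own flanks (38.9%). At the other end only 10 of the 129 were at or below the lower quartile of 613 bp, 1 each in Hoxa and Hoxb and 4 each in Hoxc and Hoxd. In Hoxa, 30 of 33 peaks (90.9%) exceeded the median of the list, against 50.0% of all peaks. In Hoxc that count was 22 of 33 (66.7%), close to the 65.3% of its own flanks. Very broad peaks were not a feature of the clusters, with 3 of 129 wider than 3 kb, against 1.92% of the list.

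**Figure D2:**
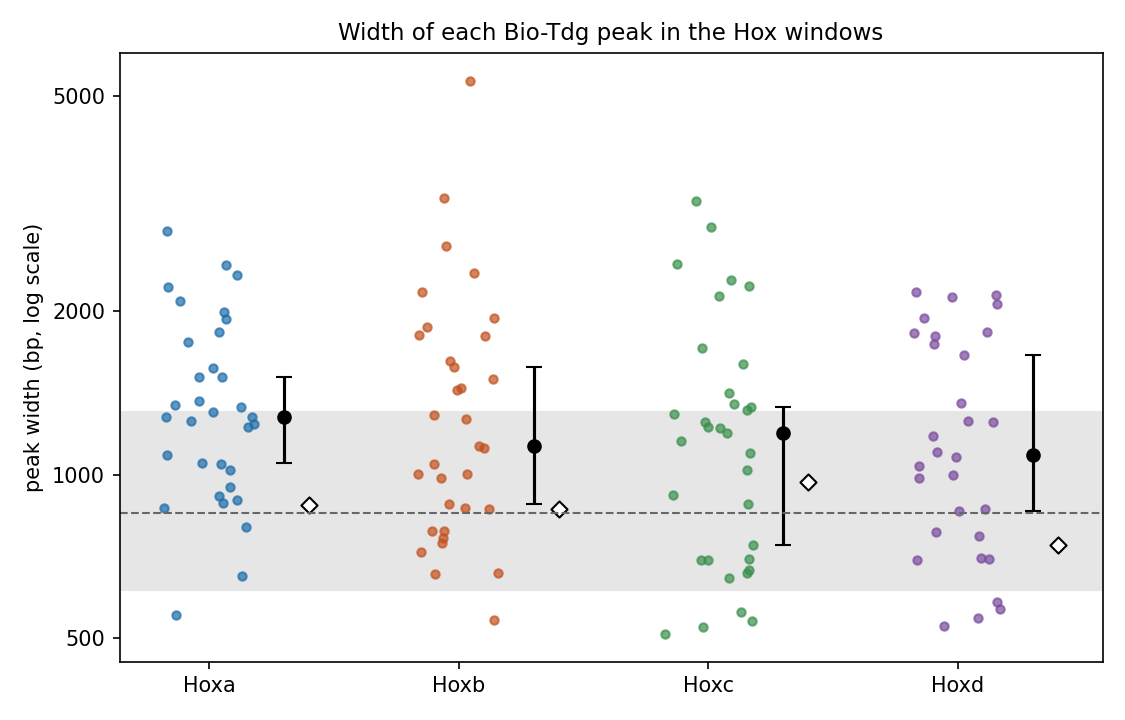
Width of each peak (coloured points, log scale) in the Hoxa, Hoxb, Hoxc and Hoxd windows, with the median and its 95% order-statistic interval (black), the median of the flanks (open diamonds), the median of the whole list (dashed line, 850 bp) and the list's quartiles (grey band, 613 to 1307 bp). In Hoxa 30 of 33 points lie above the dashed line, and 1 lies below the grey band.

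The 5 broadest peaks of each cluster are given with their place and score. In Hoxb the broadest, chromosome 11, 96143621 to 96148947, was 5327 bp wide, and 99.9% of the list was narrower. It lay 96.3 kb from the low-coordinate edge, near the middle of the window. The next, 96131191 to 96134422, with 3232 bp, lay 82.8 kb from the same edge. Both had a score of 3100, too high for their reads to be recovered. They were followed by 96111641 to 96114275 (2635 bp, score 2779), 96226202 to 96228556 (2355 bp, score 2232) and 96213081 to 96215252 (2172 bp, score 1947). The middle of the Hoxb window thus held the 3 broadest peaks of that cluster and the last 2 of the 5 lay toward the end where Hoxb1 is.

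In Hoxc the broadest was chromosome 15, 102750339 to 102753537, at 3199 bp and a score of 3100, 11.9 kb from the low-coordinate edge, the end at which Hoxc13 is the outermost member. Next came 102805766 to 102808630 (2865 bp, score 2407), 102844218 to 102846665 (2448 bp, score 2656), 102796488 to 102798777 (2290 bp, score 2324) and 102840935 to 102843164 (2230 bp, score 1809). These last 4 lay 57.6 to 105 kb from that edge. In all, 3 of 129 Hox peaks, the Hoxc peak and the 2 of Hoxb, scored above the limit up to which reads can be read back from the score, against 2.86% of the list.

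Hoxa had no such peak. Its broadest, chromosome 6, 52165627 to 52168439, was 2813 bp wide with a score of 2849 and lay 67.03 kb from the low-coordinate edge. The others were 52194534 to 52196968 (2435 bp, score 2316), 52113093 to 52115425 (2333 bp, score 1886), 52107550 to 52109766 (2217 bp, score 2439) and 52153065 to 52155157 (2093 bp, score 2223). They were spread over the window, from 8.66 to 95.8 kb. Hoxd had the narrowest set of leading peaks. They were chromosome 2, 74529170 to 74531337 (2168 bp, score 1755), 74505034 to 74507177 (2144 bp, score 1555), 74565034 to 74567160 (2127 bp, score 1559), 74519313 to 74521376 (2064 bp, score 1943) and 74600432 to 74602373 (1942 bp, score 1571). No Hoxd score exceeded 1943.

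The narrowest peaks of the 4 clusters were alike. They were 552 bp in Hoxa (52212757 to 52213308), 540 bp in Hoxb (96139953 to 96140492), 508 bp in Hoxc (102837635 to 102838142) and 525 bp in Hoxd (74561194 to 74561718), with scores of 290, 276, 282 and 279. The lowest score of the list is 258, so these lay close to the weakest peaks that were called. Median scores were 1162 in Hoxa, 1041 in Hoxb, 887 in Hoxd and 807 in Hoxc, against 553 over the list. Score rises with width, so this is no second measure beside it.

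**Figure D3:**
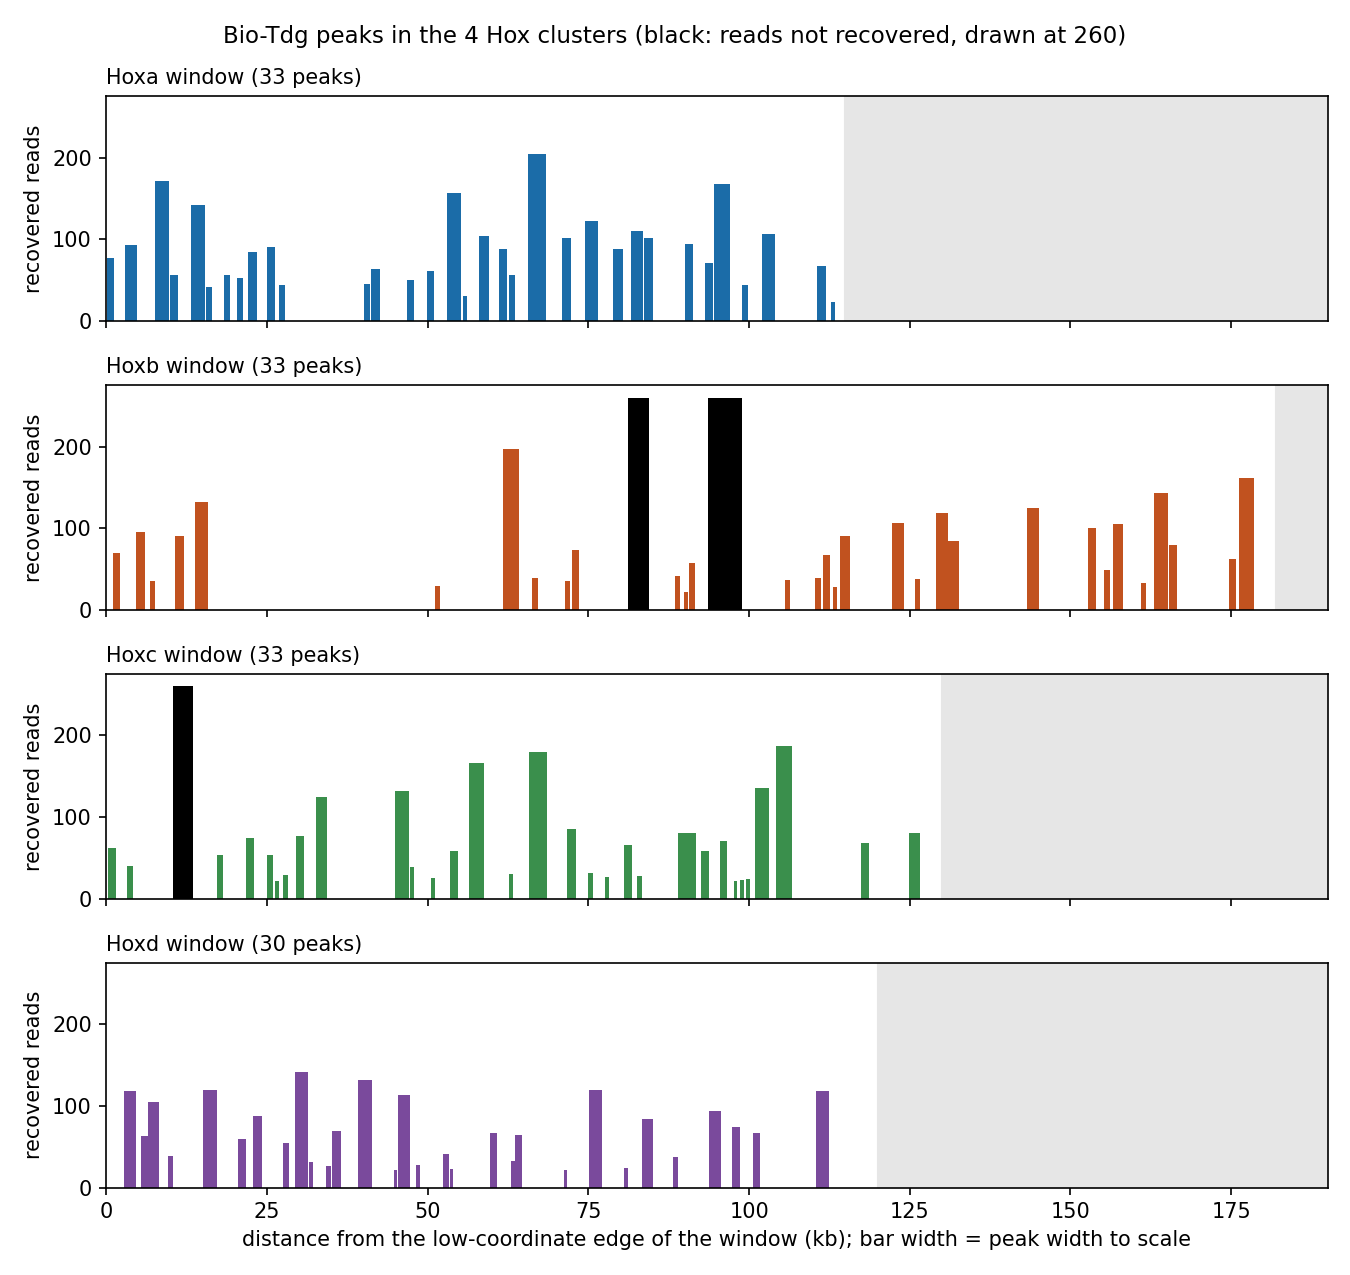
Every peak of the 4 clusters, placed by distance from the low-coordinate edge of its window (kb) with bar width to scale and bar height giving the recovered reads. The 3 black bars are peaks whose reads could not be recovered and are drawn at a fixed height, and grey shading marks where a window has ended. The stretch of 35.4 kb without a peak stands in the Hoxb panel.

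Below the limit of score named above, scores take only the values that whole reads can give at a common background rate, so reads could be worked out from score and width for 126 of the 129 peaks. They ranged from 23 to 204 in Hoxa with a median of 85, from 22 to 197 in Hoxb with a median of 70, from 22 to 187 in Hoxc with a median of 60.5 and from 22 to 141 in Hoxd with a median of 66. The median of the list was 41. Per kb of peak, Hoxa had a median of 59.8 reads, Hoxb 59.8, Hoxd 54.7 and Hoxc 52.2, against 49.5 over the list. The flanks had 49.6 around Hoxa, 49.2 around Hoxb, 46.5 around Hoxd and 54.1 around Hoxc, so Hoxc lay below its own flanks. Density rises with width in the list. Each peak was therefore also ranked by its reads among the peaks within 5% of its width that had recovered reads. Peaks above the limit of score were left out of it, so ranks of broad peaks can be too high. Of the 18225 peaks of the list wider than its upper quartile, 16141 had recovered reads. In that ranking the Hox peaks did not lie high. Of 126, 80 fell below the median (63.5%), against 49.2% of all peaks with recovered reads. These were 23 of 30 in Hoxd, 23 of 32 in Hoxc, 18 of 31 in Hoxb and 16 of 33 in Hoxa. In the flanks 142 of 286 did so (49.7%). By cluster these were 9 of 13 around Hoxd (69.2%) and 36 of 91 around Hoxc (39.6%). Around Hoxb they were 73 of 136 (53.7%) and around Hoxa 24 of 46 (52.2%). The shares in the windows were 76.7% in Hoxd, 71.9% in Hoxc, 58.1% in Hoxb and 48.5% in Hoxa. Hoxd thus lay near its own few flank peaks, and Hoxc lay well above its flanks.

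The share differed between broad and narrow Hox peaks. Among members wider than 1307 bp with recovered reads, 39 of 49 (79.6%) had fewer reads than the median ranked peak of like width. This was so for 49.2% of such peaks in the list and 44.2% in the flanks. They were 10 of 11 in Hoxd, 10 of 12 in Hoxb, 9 of 11 in Hoxc and 10 of 15 in Hoxa. Their median density was 62.0 reads per kb, against 69.5 for peaks of that class in the list and 70.3 in the flanks. Among narrower members the count was 41 of 77 (53.2%), against 49.2% of such peaks in the list, but the clusters differed. It was 13 of 19 in Hoxd (68.4%) and 14 of 21 in Hoxc (66.7%), and 8 of 19 in Hoxb (42.1%) and 6 of 18 in Hoxa (33.3%). The broad Hoxd peaks 74505034 to 74507177 and 74565034 to 74567160, with 120 reads each, ranked at percentiles 4.98 and 5.20 for their width. The broadest Hoxa peak, with 204 reads, and the Hoxb peak 96111641 to 96114275, with 197, ranked at 73.1 and 70.9. Both ranks leave out the peaks of like width above the limit of score and are too high for that reason. By how much was not worked out. The split by width was chosen after the values had been seen, the 3 members without recovered reads are not ranked, and no test stands behind these shares.

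**Figure D4:**
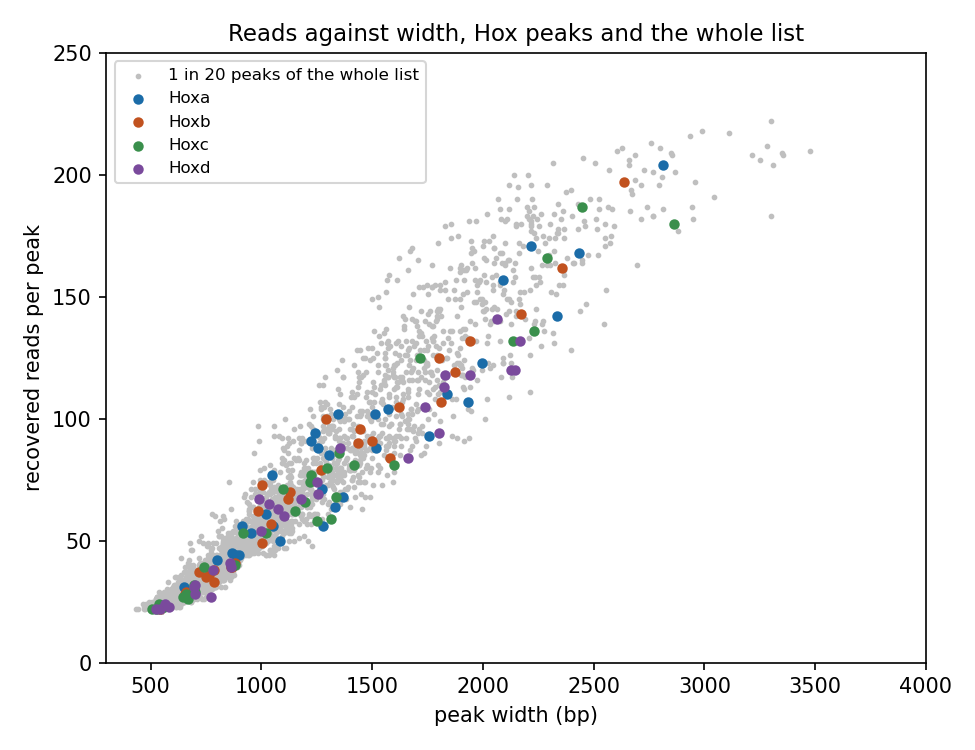
Recovered reads per peak against peak width (bp) for the 126 Hox peaks with recovered reads (coloured by cluster) and for 1 in 20 peaks of the whole list (grey). Peaks of the list without recovered reads are not drawn. Above about 1500 bp most coloured points lie in the lower part of the grey cloud, with Hoxd peaks among the lowest.

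Within the windows the peaks were closely spaced and left few long stretches free. The median stretch between neighbouring peaks was 1874 bp in Hoxa, 1998 bp in Hoxb, 1872.5 bp in Hoxc and 2157 bp in Hoxd. A neighbour less than 1 kb away was present for 68 of the 129 peaks (52.7%), against 32.9% of the list and 33.0% of the flank peaks. It was present for 20 of 33 in Hoxa, 19 in Hoxb, 14 in Hoxc and 15 of 30 in Hoxd, and for 0 of the 13 peaks around Hoxd. Denser placement by itself brings neighbours closer, so this is not independent of the density. Stretches over 5 kb without a peak numbered 2 of 32 in Hoxa, 3 of 29 in Hoxd, 5 of 32 in Hoxc and 8 of 32 in Hoxb.

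Hoxb had the longest of them, 35.4 kb from 96065772 to 96101194, between a peak of 1944 bp (96063828 to 96065771) and one of 658 bp (96101195 to 96101852). Hoxb13 is the outermost member on that side and Hoxb9 the next in RefSeq's order, and Hoxb13 is known to be set far apart from the other members. Whether the stretch is the interval between them was not tested. The longest in Hoxa was 12.3 kb, from 52127830 to 52140137, with peaks of 897 bp (52126933 to 52127829) and 868 bp (52140138 to 52141005) at its ends. In Hoxc it was 10.7 kb, from 102846666 to 102857380, between the third broadest peak of that cluster and one of 1335 bp (102857381 to 102858715). In Hoxd it was 8.66 kb, from 74591770 to 74600431, between peaks of 1177 bp (74590593 to 74591769) and 1942 bp (74600432 to 74602373), toward the end of Hoxd1.

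Along the windows, each divided in 3 equal parts, the peaks were spread most evenly in Hoxa and Hoxc. From the side of Hoxa2 to that of Hoxa13, Hoxa had 11, 12 and 10 peaks that covered 38.4%, 44.6% and 38.0%. From the side of Hoxc13 to that of Hoxc4, Hoxc had 10, 12 and 11 peaks and 29.0%, 35.1% and 33.1% covered. Hoxd was fullest at the side of Hoxd13, with 12, 11 and 7 peaks and 41.8%, 28.1% and 23.0% covered toward Hoxd1. Hoxb was emptiest at the side of Hoxb13, with 6, 14 and 13 peaks and 12.1%, 34.9% and 31.9% covered. The part on the posterior side, that of the genes numbered highest, held the most peaks in Hoxd and the fewest in the other 3 clusters. In those 3 it was also the least covered. Which genes lie in each part was not checked in mm9. In Hoxa and Hoxc the parts differed by 2 peaks at most. With 6 to 14 peaks in a part, these differences were not tested. The order of genes is RefSeq's on GRCm38.p6, used here only for which genes neighbour each other.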

How the data were processed

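The Bio-Tdg peak list, as deposited by the authors, gives start, end and a score per peak. Per the submitters' processing notes, the tools were CASAVA 1.8, Bowtie 0.12.7 and MACS 1.4.1 and the build mm9, without their roles. How peaks were thresholded and against which control is not given in the sources used here. Starts were counted from 1. The score is the authors' value; in MACS output it is -10 times the log10 of a p-value. Reads were recovered by fitting 1 background rate (1.13 reads per kb) under which 70875 of 70884 scores below 3050 equal, within 0.01, the Poisson score of a whole number of reads. On simulated peaks recovery was 100%. With a simulated rate that varied between peaks, 0.0693% of scores came within 0.01 of a whole-read score at the middle rate. No rate was fitted in that simulation. Given the 70875 matches, the scores below 3050 carry 1 rate for the whole list and no adjustment for local background. The library's depth is unknown. Reads lack molecular identifiers.

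Density ratios carry exact conditional binomial (Clopper-Pearson) 95% intervals and medians carry order-statistic intervals, with no p. Peaks touching a window belong to it and not to its flanks. Named peaks are the 5 widest and the narrowest of each cluster and those beside its longest empty stretch. The promoters shown are those with the most and fewest CG. Windows and members were chosen with earlier results of these data known. Alternatives were score minimums of 500 and 1000, merging within 1 kb, midpoints, window edges moved by 10 kb, flanks of 250 kb or 1 Mb, the rest of the chromosome, and leaving out a cluster. All 38 genes matched RefSeq's GRCm38.p6 table by symbol. Python 3.11.15, numpy 2.4.6, pandas 2.3.3, scipy 1.17.1 and matplotlib 3.10.9 were used.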

Additional observations from a re-analysis of the deposited data

How the results depend on the processing

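Of 49 alternative values of the density ratios, 47 kept their direction and their call, that is, whether the interval lay above 1 or held it. They include 7 values of Hoxb whose intervals held 1, as its main interval did. Counting by midpoints gave the same ratios as the main setting. The exceptions were both in Hoxb, whose ratio of 1.30 rose to 2.46 at a score of at least 1000 and to 3.26 against the rest of the chromosome, both with intervals above 1. Across the alternatives the ratio ran from 4.35 to 13.0 in Hoxa, 2.22 to 7.90 in Hoxc, 7.43 to 45.8 in Hoxd and 2.48 to 6.63 over the 4 clusters. Of 24 alternative median widths, 16 kept direction and call. At a score of at least 500 the median of the list itself is 1243 bp, and the medians of 1306 bp in Hoxa, 1500 bp in Hoxb and 1506.5 bp in Hoxd no longer exceeded it by their intervals. At a score of at least 1000 the list's median is 1714 bp, and Hoxa with 1663 bp fell below it, while Hoxb with 1804 bp and Hoxd with 1829 bp were above it without passing. Hoxd also lost its call with the window narrowed by 10 kb (1018 bp), and Hoxc gained one with peaks merged (1342 bp). Score rises with width, so a score minimum also selects by width and is no independent check of it. The cause of these changes in width calls was not tested. No paired analysis was possible because there is a single Bio-Tdg library and no file of the mock was used. A called peak had at least 21 reads and a score of at least 258, the depth of the library is unknown, and a stretch without a peak does not show missing binding.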
